A study of Mus musculus with 18 samples.

Results

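The genes described here encode the subunits, activators and assembly factors of the proteasome, the barrel-shaped protease that breaks down proteins tagged with ubiquitin. They were taken as all genes whose symbol is Psma, Psmb, Psmc, Psmd, Psme, Psmf or Psmg followed by a digit, each read by the brightest of its array probe sets that carry exactly 1 gene symbol. The rule found 49 of the 18193 genes read in this way, from 103 probe sets. Psmc3ip, a meiotic recombination factor, and Psme3ip1, a protein that binds the activator encoded by Psme3, matched by name alone and encode no subunit. Of the 5 inducible genes that the rule sets against the rest, 4 were measured (Psmb8, Psmb9, Psmb10 and Psme1). The probe set of Psme2 is shared with Psme2b, so Psme2 was not analysed here. A filter on dim genes, which kept 13645 genes with a mean above the 25th percentile, passed 48 of the 49. Psmb11, the catalytic subunit of the thymus form, did not pass, with a highest level of 4.90 in the Western-quercetin, 4.83 in the Western and 4.71 in the control group. Levels throughout are log2(signal + 16) after quantile normalization.

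Whole liver of male C57BL/6J mice had been read on Affymetrix arrays, with 6 arrays for each diet group of 6 mice. The labels name no genetic change. The mice arrived at 5 weeks of age, spent 1 week on a standard diet and were then fed a test diet for 20 weeks. The Western-quercetin group received a Western-style diet with 0.05% quercetin, a plant flavonol. The Western group received that diet alone, with 39.9% of energy from fat (20% butter and 1% soy oil), 34.0% of energy from sucrose and 0.15% cholesterol. The control group received AIN93G, a purified rodent diet. Mice were caged in groups of 3, and the labels do not say which mice shared a cage.

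Array brightness was not equal between groups, with trimmed mean signals of 82.3 to 95.4 in the Western-quercetin, 80.2 to 102 in the Western and 66.7 to 80.8 in the control group. The SD of the log2 differences between control arrays 4 and 5 was 0.0554 over 4241 probe sets with a bright signal. The next closest pairs were also numbered 4 and 5, in the Western-quercetin group (0.158) and in the Western group (0.170). What arrays of these numbers have in common is not given. Control arrays 4 and 5 differed by so little that they were averaged as sample 4-5, which left n = 5 in the control group and n = 6 in each of the others. Whether both came from 1 mouse is not given. All 8 hepatocyte markers lay above the dim level, but so did all 16 macrophage and all 6 endothelial markers. Passing that level therefore does not identify the tissue. Of the 10 marker lists, the hepatocyte list had the highest summed signal. Its medians were 50100 in the Western-quercetin, 48200 in the Western and 52400 in the control group. Since whole liver was read, fewer cells of a type and less RNA per cell cannot be told apart.

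The 20S core of the proteasome is a stack of rings of alpha subunits, which gate the barrel, and beta subunits, of which Psmb5, Psmb6 and Psmb7 encode the catalytic ones. The 19S cap recognises ubiquitin chains and unfolds substrates with a ring of ATPases encoded by the Psmc genes. Under interferon, and constantly in many immune cells, Psmb8, Psmb9 and Psmb10 encode catalytic subunits that replace those of Psmb5, Psmb6 and Psmb7 in newly built cores, and Psme1 and Psme2 encode the PA28 activator that opens them. These immunoproteasomes are known for making peptides for MHC class I molecules. The transcription factors NFE2L1 and, for a part of the genes, NFE2L2 (NRF2) are known to raise the core and cap genes when proteasome activity or the redox state is disturbed.

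On the Western-style diet, 1 of the 48 proteasome genes tested rose against the control diet and 0 fell. The gene was Psmd8, a subunit of the lid of the 19S cap, at 1.35-fold. In the Western-quercetin group the same gene, at 1.34-fold, was the only member called against the control diet, again with 0 lower. Between the Western-quercetin and the Western group 0 of 48 members were called. The calls are limma's moderated test with Benjamini-Hochberg adjustment over all 13645 genes and a threshold of 0.05. Over all genes, 8.65% were called for Western against control (5.49% higher, 3.16% lower), 5.41% for Western-quercetin against control (3.43% higher, 1.98% lower) and 0% for Western-quercetin against Western. At an unadjusted p under 0.05 there were 6 members for Western against control, where all genes gave 23.3%. There were 4 members for Western-quercetin against control, where all genes gave 19.9%, and 0 for Western-quercetin against Western, where all genes gave 2.87%. Both comparisons with the control diet use the same 5 control samples, so they are no independent evidence of each other.

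The levels of the whole family lay close together between diets. For Western against control the 48 log2 differences had a median of −0.0041 and ran from −0.28 to 0.43, with 21 above and 27 below 0. The median of all genes was −0.015. The 95% interval of the difference lay within 0.5 log2 units of 0 for 47 of the 48 members (97.9%), and for 70.5% of all genes. Psmd8 was the exception. The width of an interval follows the spread within groups, with a median SD of 0.128 for the members and 0.196 for all genes. The shares given here were not matched for level or spread, so they show no stability particular to the family. For Western-quercetin against Western the members' median was −0.0087 with a range of −0.16 to 0.22, and all 48 intervals lay within 0.5 of 0, against 88.1% of all genes. The ends of that range were Psmc3ip, which encodes no subunit, and Psma8. Their mean levels, 4.87 and 4.78, lay near the dim filter's cut of 4.56. For Western-quercetin against control the median was −0.0090 and 47 of 48 intervals lay within that bound. The plot of differences and intervals shows the family gene by gene.

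**Figure D1:**
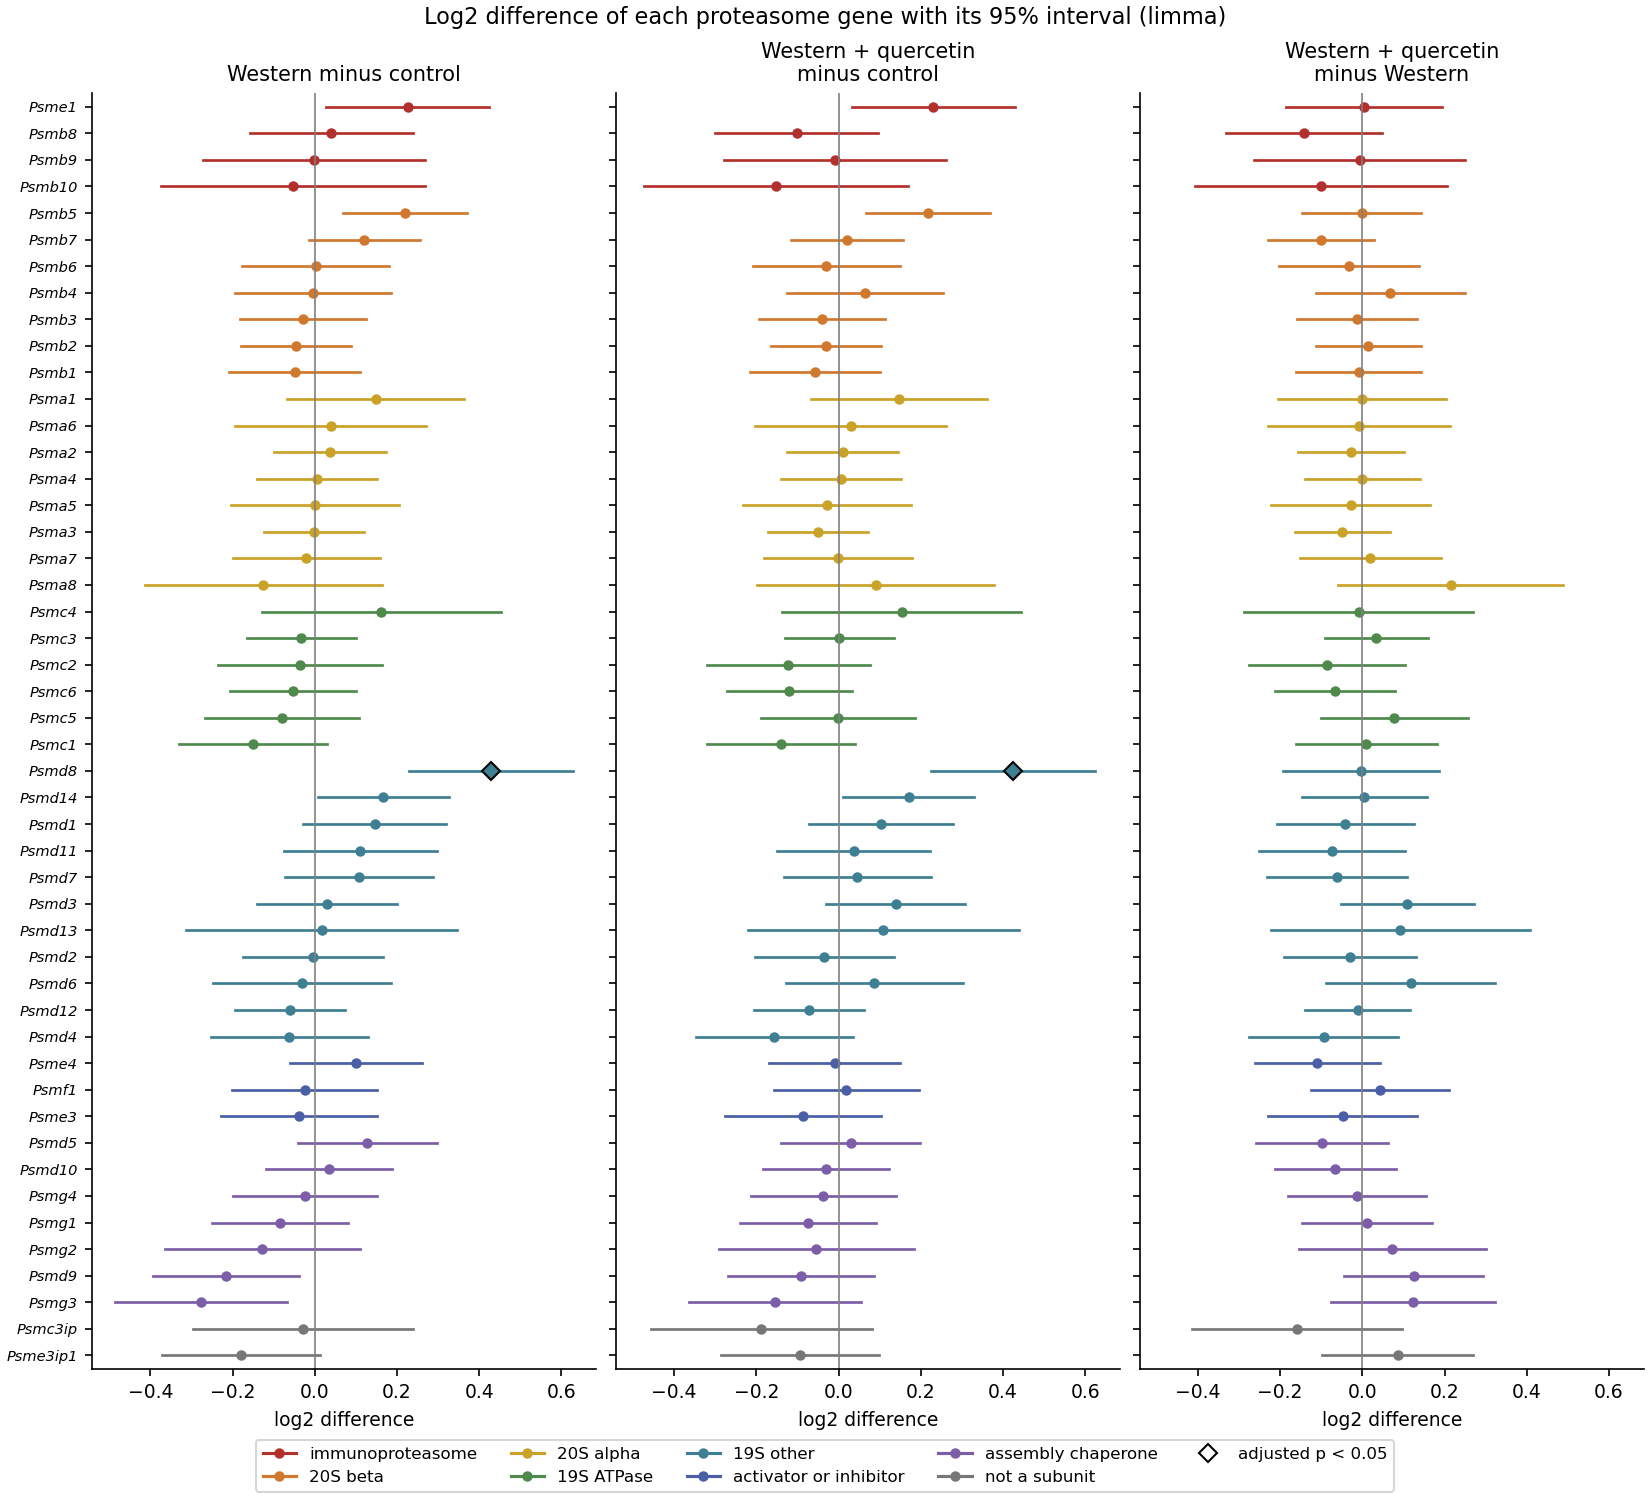
Log2 difference (x axis) and 95% interval of 48 proteasome genes (rows, by class) in 3 comparisons, with diamonds for an adjusted p under 0.05 by limma. Psmd8 carries the only diamonds, at 0.43 for Western against control and 0.43 for Western-quercetin against control, and no gene has one for Western-quercetin against Western.

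Psmd8 is read by 1 probe set. The lowest, median and highest level of Psmd8 were 10.14, 10.55 and 10.78 in the Western-quercetin group and 10.41, 10.52 and 10.67 in the Western group, against 9.96, 10.19, 10.10, 10.06 and 10.14 in control samples 1, 2, 3, 4-5 and 6. Every Western sample lay above every control sample, and of the Western-quercetin samples only the lowest fell within the control range. The means were 10.51 ± 0.22 in the Western-quercetin and 10.52 ± 0.10 in the Western group (SD, n = 6 each), and 10.09 ± 0.08 in the control group (SD, n = 5). The log2 difference of Western against control was 0.43 (SE 0.10, 95% interval 0.23 to 0.63, limma adjusted p = 0.00908). That of Western-quercetin against control was 0.43 (95% interval 0.23 to 0.63, limma adjusted p = 0.0132). Between the Western-quercetin and the Western group the difference was −0.0038, with an interval of −0.19 to 0.19. In yeast its counterpart Rpn12 is the last subunit of the lid to be added, after which the lid joins the base.

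Psmd8 stayed above the control diet in all 32 alternative settings of both comparisons and was called in 29 of the 32. Of these settings 17 left out 1 sample each, at times one outside the comparison, so they are no independent checks. The ratio of the 3′ to the 5′ actin probe sets, a sign of RNA quality, was 0.55 ± 0.078 (log2, SD) in the Western-quercetin, 0.54 ± 0.11 in the Western and 0.69 ± 0.056 in the control group. With that ratio as a covariate the difference was 0.29 for Western against control (limma adjusted p = 0.179) and 0.30 for Western-quercetin against control (limma adjusted p = 0.178). Within samples numbered 1 to 3 the Western difference was 0.47 (limma adjusted p = 0.11), and within numbers 4 to 6 it was 0.38 (limma adjusted p = 0.169), each with fewer samples. The Western-quercetin difference was 0.56 (limma adjusted p = 0.0518) within numbers 1 to 3 and 0.29 (limma adjusted p = 0.333) within numbers 4 to 6. Whether the sample numbers follow the cages is not given.

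The count of members called depended on the scaling of the arrays. On the values as deposited, 15 members were called for Western against control, and 10 for Western-quercetin against control, all of them higher. On that scale 27.3% and 23.9% of all genes were called, and the median gene stood 0.22 above control in the Western and 0.22 above in the Western-quercetin group.

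The immunoproteasome genes did not pass the test in any comparison after quantile normalization. On the values as deposited, Psmb8 (0.33, limma adjusted p = 0.0479) and Psme1 (0.48, limma adjusted p = 0.0133) were called higher for Western against control. Psme1 was also called higher there for Western-quercetin against control (0.49, limma adjusted p = 0.0132). These calls stand beside the shift of the median gene given above. Psmb8, Psmb9 and Psmb10 encode the inducible catalytic subunits known as LMP7, LMP2 and MECL-1, and Psme1 encodes the alpha subunit of PA28. Psmb8 had a lowest, median and highest level of 7.71, 7.88 and 8.04 in the Western-quercetin group and of 7.73, 8.04 and 8.17 in the Western group, against 7.79, 7.86, 8.01, 8.19 and 8.02 in control samples 1, 2, 3, 4-5 and 6. The groups overlapped, with the highest sample in the control group and the median of the Western-quercetin group below that of the Western group. The Psmb8 difference was 0.041 for Western against control (95% interval −0.16 to 0.24, limma adjusted p = 0.843). For Western-quercetin against Western it was −0.14 (95% interval −0.33 to 0.047, limma adjusted p = 1).

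The lowest, median and highest level of Psmb9 were 7.82, 8.0004 and 8.25 in the Western-quercetin group and 7.67, 8.12 and 8.28 in the Western group, against 7.90, 7.70, 7.96, 8.35 and 8.14 in control samples 1, 2, 3, 4-5 and 6. The control range covered nearly the whole range of both other groups. The Psmb9 difference was −0.0023 for Western against control, with a 95% interval of −0.27 to 0.27, and −0.0061 for Western-quercetin against Western, with an interval of −0.26 to 0.25. Psmb10 had a lowest, median and highest level of 7.55, 7.97 and 8.24 in the Western-quercetin group and of 7.75, 8.09 and 8.28 in the Western group, against 7.64, 7.93, 8.13, 8.46 and 8.51 in control samples 1, 2, 3, 4-5 and 6. The control samples held both the second lowest level and the highest ones. The Psmb10 difference was −0.052 for Western against control (95% interval −0.37 to 0.27) and −0.15 for Western-quercetin against control (95% interval −0.47 to 0.17). For these 3 genes the intervals leave room for changes of up to 0.47 log2 units in size against the control diet.

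The lowest, median and highest level of Psme1 were 9.50, 9.77 and 9.85 in the Western-quercetin group and 9.49, 9.74 and 9.92 in the Western group, against 9.67, 9.37, 9.38, 9.48 and 9.59 in control samples 1, 2, 3, 4-5 and 6. Most samples on the Western-style diet lay above most control samples, but the groups overlapped. The Psme1 difference was 0.23 for Western against control (95% interval 0.027 to 0.42, limma adjusted p = 0.156), with 5 of 6 samples above the control mean. It was 0.23 for Western-quercetin against control (limma adjusted p = 0.175), with 6 of 6 above.

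**Figure D2:**
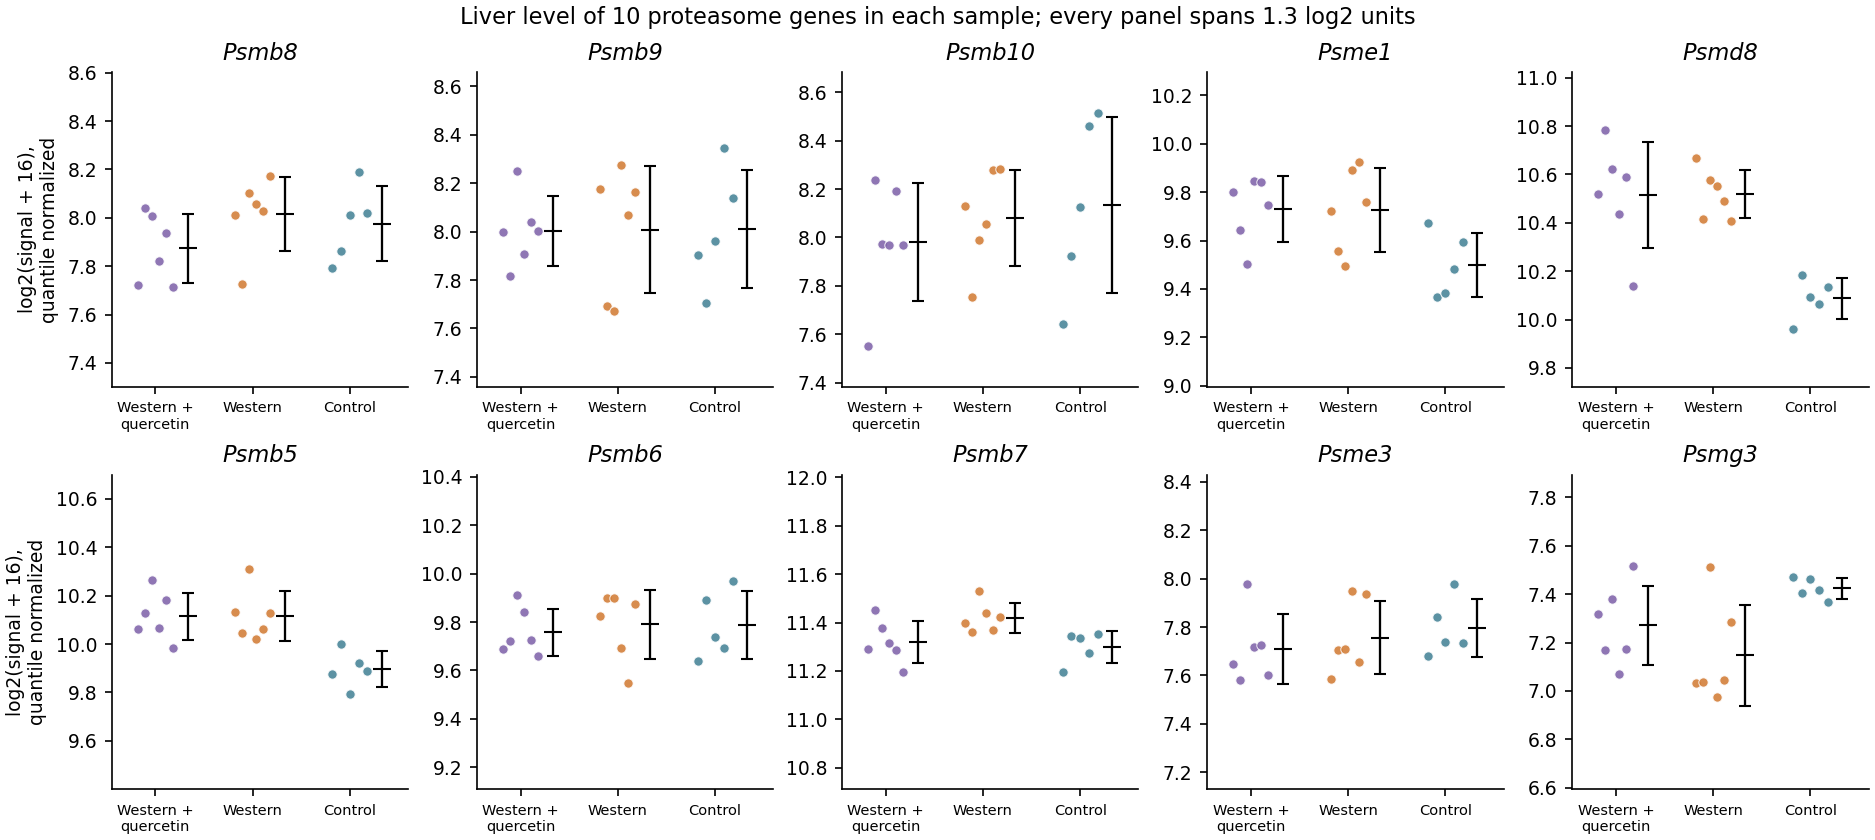
Level in log2(signal + 16) of 10 proteasome genes (panels) in each sample (points) of the Western-quercetin (n = 6), Western (n = 6) and control (n = 5) groups, with bars for the mean ± SD. Each panel spans the same number of log2 units. The Psmd8 points of the Western group, from 10.41, sit above all control points, up to 10.19, while the Psmb8, Psmb9 and Psmb10 points of the groups overlap.

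The constitutive catalytic genes gave 0 calls as well after quantile normalization, and Psmb5 came nearest. On the values as deposited, Psmb5 (0.45, limma adjusted p = 0.00277) and Psmb7 (0.28, limma adjusted p = 0.0246) were called higher for Western against control, and Psmb5 also for Western-quercetin against control (limma adjusted p = 0.00369). Psmb5 encodes the subunit with chymotrypsin-like activity. Psmb5 had a lowest, median and highest level of 9.98, 10.10 and 10.26 in the Western-quercetin group and of 10.02, 10.09 and 10.31 in the Western group, against 9.88, 10.00, 9.79, 9.92 and 9.89 in control samples 1, 2, 3, 4-5 and 6. The lowest Western sample lay just above the highest control sample, and the Western-quercetin samples overlapped with the control samples. The Psmb5 difference was 0.22 for Western against control (95% interval 0.069 to 0.37, limma adjusted p = 0.066) and 0.22 for Western-quercetin against control (limma adjusted p = 0.0864). Psmb7, which encodes the subunit with trypsin-like activity, also did not overlap between Western and control samples, from 11.36 to 11.53 in the Western group, against 11.19 to 11.35 in the control group. Its difference was 0.12 (limma adjusted p = 0.281). Psmb6, which encodes the subunit with caspase-like activity, averaged 9.76 ± 0.10 in the Western-quercetin, 9.79 ± 0.14 in the Western and 9.79 ± 0.14 in the control group. Psmd8, Psmb5 and Psmb7 were the 3 members whose Western and control samples did not overlap, where 6.9% of all genes did not. Between Western-quercetin and control samples 0 members were free of overlap, where 4.65% of all genes were, and between Western-quercetin and Western samples 0, where 0.132% were.

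The promoters of Psmb8, the inducible gene, of Psmb5, its constitutive counterpart, and of Psmd8, the gene called, are shown because the results turn on these 3 genes. The stretches are the 150 bases just before the annotated start, from RefSeq for build GRCm38.p6, at chr17:34198045-34198194 (+ strand), chr14:54617996-54618145 (- strand) and chr7:29180674-29180823 (- strand). Capitals mark a gamma activated site (TTCNNNGAA) in Psmb8 and an antioxidant response element core (TGACNNNGC) in Psmb5, and the window of Psmd8 holds no motif searched.
Psmb8: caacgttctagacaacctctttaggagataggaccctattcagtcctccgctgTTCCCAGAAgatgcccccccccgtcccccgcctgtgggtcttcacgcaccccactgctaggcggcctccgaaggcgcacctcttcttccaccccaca
Psmb5: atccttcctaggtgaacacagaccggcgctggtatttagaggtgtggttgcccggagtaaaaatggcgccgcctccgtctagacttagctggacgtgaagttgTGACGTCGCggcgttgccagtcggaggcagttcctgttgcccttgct
Psmd8: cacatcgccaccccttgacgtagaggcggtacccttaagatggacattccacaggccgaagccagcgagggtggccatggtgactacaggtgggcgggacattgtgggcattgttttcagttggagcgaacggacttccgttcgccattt

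Motifs were searched on both strands in the 250 bases before the start, in 44 windows of 41 member genes and in 32841 windows of all genes. The gamma activated site, bound by STAT factors, was found in 2 member windows, 4.55% of them, and in 7.02% of all windows. The antioxidant response element core, bound by NRF2 and its relatives, was found in 5 member windows (11.4%; Psmb5, Psmb6, Psmc6, Psmd12 and Psmd9) and in 10.2% of all. An interferon regulatory factor element, read as GAAA, any 2 bases and GAAA, stood in 3 member windows (6.82%; Psmb3, Psmd4 and Psmd9) and in 2.98% of all. The CCAAT box was found in 16 member windows (36.4%), near its share of 33.9% in all windows. A site for NF-kappaB, read as GGGA, any 1 base and TTTCC, was found in 0 member windows and 0.356% of all. A match is a string of letters and not a bound site.

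The exchange of catalytic subunits was read within each sample as the level of an inducible gene minus that of its counterpart. Such a difference between probe sets has no meaning as a ratio of the RNAs, and only its change between groups was compared, with exact permutation tests, two-sided, adjusted over 9 tests, of which the smallest p possible against the control group was 0.00216. Psmb8 minus Psmb5 was −2.24 ± 0.083 in the Western-quercetin, −2.10 ± 0.14 in the Western and −1.92 ± 0.18 in the control group (SD). The difference between groups was −0.32 for Western-quercetin against control (exact permutation p = 0.00649, adjusted p = 0.0584) and −0.18 for Western against control (exact permutation p = 0.0996, adjusted p = 0.299). For Western-quercetin against Western it was −0.14 (exact permutation p = 0.0714, adjusted p = 0.299). None passed the threshold after adjustment, but without control sample 2 the Western-quercetin difference was −0.37 with an adjusted p of 0.0429 by the exact test. With other single samples left out the adjusted p reached 0.143, and on the values as deposited the difference was −0.28 (exact permutation p = 0.0238, adjusted p = 0.214). With the mean of the probe sets it was −0.25 (exact permutation p = 0.0584, adjusted p = 0.37). Psmb8 has a second, dimmer probe set (mean level 4.91). It gave 0.031 for Western-quercetin against control and 0.11 for Western-quercetin against Western, where the chosen one gave −0.10 and −0.14. Psmb9 minus Psmb6 was −1.76 ± 0.13, −1.78 ± 0.36 and −1.78 ± 0.30 in the same order of groups, and differed by 0.021 for Western-quercetin against control. Psmb10 minus Psmb7 differed by −0.17 for Western-quercetin against control and −0.17 for Western against control, with an adjusted p of 0.581 for both by the exact test.

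**Figure D3:**
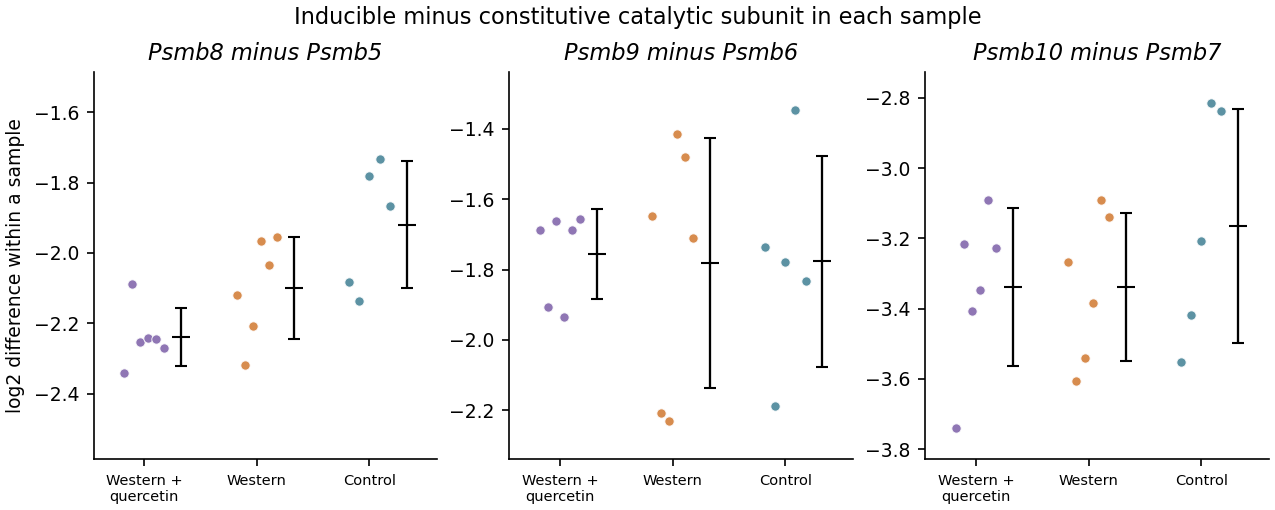
Log2 level of an inducible gene minus its constitutive counterpart within each sample (points) for 3 pairs (panels), in the Western-quercetin, Western and control groups, with bars for the mean ± SD. Psmb8 minus Psmb5 has means of −2.24, −2.10 and −1.92 in that order of groups, and the groups overlap in every pair.

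The spread between mice of a group differed along the family. The median SD within groups was 0.185 for the 4 inducible genes (0.149 to 0.271), 0.126 for the 44 others and 0.196 for all genes, described without a test. Psmb10 (0.271) was the second most variable member after Psmd13, a lid subunit (0.279). The least variable was Psma3, an alpha ring subunit (0.0477). The median of the inducible genes minus that of the rest, per sample and after centring each gene on its mean over the samples, was −0.027 ± 0.082 in the Western-quercetin, 0.022 ± 0.20 in the Western and 0.0014 ± 0.24 in the control group (SD). The value was spread over −0.12 to 0.10 in the Western-quercetin group, −0.27 to 0.20 in the Western group and −0.25 to 0.34 in the control group. In control samples 1, 2 and 3 it was −0.20, −0.25 and 0.011, and in samples 4-5 and 6 it was 0.34 and 0.11. Western samples 1, 2 and 3 had 0.059, −0.27 and −0.19, and samples 4, 5 and 6 had 0.20, 0.17 and 0.16. The spread in these groups thus followed the sample numbers, whose meaning is not given. Western-quercetin samples were not split in this way. As a difference of medians over genes, Western-quercetin against control gave −0.049 over all samples, 0.15 within samples 1 to 3 and −0.28 within samples 4 to 6, so its sign depended on which samples were read.

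The other classes of the complex showed no call apart from Psmd8. Among the 8 genes of the 20S alpha ring, 5 lay above and 3 below control in the Western group, with a median of 0.0033. Psma1, an alpha subunit of the general core, was highest at 0.15 and Psma8, the testis form, lowest at −0.12. Psma8 averaged 4.88 in the Western-quercetin, 4.66 in the Western and 4.79 in the control group, near the dim filter's cut of 4.56. Among the 7 constitutive genes of the 20S beta ring the median was −0.0037, from −0.049 for the non-catalytic Psmb1 to 0.22 for Psmb5. The low end rests on the choice of probe set. Psmb3 was at −0.028 by its brightest probe set (mean level 9.29) but at −0.23 by its other one (mean level 9.18). Of the 6 ATPase genes of the cap, 5 lay below control, with a median of −0.044, from −0.15 for Psmc1 to 0.16 for Psmc4. None of these passed the test, and each class median lay within 0.1 log2 units of 0.

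The 11 other genes of the 19S cap had a median of 0.030 for Western against control, 7 above and 4 below. Psmd8 was the highest and Psmd4, which encodes a ubiquitin receptor, the lowest at −0.062. Another probe set of Psmd4, of nearly the same mean level (9.32 against 9.37), gave 0.018. The 3 activator and inhibitor genes that are not inducible ran from −0.039 for Psme3, the nuclear activator PA28 gamma, to 0.10 for Psme4, the activator PA200. For Western-quercetin against control the class medians ran from −0.061 for the ATPases to 0.087 for the other cap genes. Psma8, near the dim filter's cut as given above, had the highest difference for Western-quercetin against Western, 0.22. Psmb8 had the lowest among the subunit genes, −0.14. In that comparison the class medians ran from −0.053 for the inducible genes to 0.011 for the assembly chaperones.

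The 7 assembly chaperones, which help build the rings and leave the finished complex, had the lowest class median of the complex for Western against control, −0.084, 5 of 7 below control and 0 called. Psmg3 encodes a chaperone of the alpha ring. The lowest, median and highest level of Psmg3 were 7.07, 7.25 and 7.52 in the Western-quercetin group and 6.97, 7.04 and 7.51 in the Western group, against 7.47, 7.40, 7.46, 7.42 and 7.37 in control samples 1, 2, 3, 4-5 and 6. The control samples lay within a narrow band, and the Western samples were spread from below it to above it. The Psmg3 difference was −0.28 for Western against control (95% interval −0.49 to −0.067, limma adjusted p = 0.0952). Without Western sample 3, the highest in the group, it was −0.35 (limma adjusted p = 0.0236). Psmd5, a chaperone of the ATPase base, was the highest of the class at 0.13.

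Psmd9 and Psmd14 were chosen for mention after their values were seen, as the members beside Psmd8, Psmb5, Psmg3 and Psme1 with an unadjusted p under 0.05 by limma. Psmd9, another chaperone of the base, averaged 7.97 ± 0.13 in the Western-quercetin, 7.85 ± 0.10 in the Western and 8.06 ± 0.14 in the control group, with a Western difference of −0.22 (limma adjusted p = 0.124). Psmd14, the lid enzyme that removes ubiquitin chains from substrates, averaged 9.61 ± 0.06, 9.61 ± 0.07 and 9.44 ± 0.17 in the same order of groups, with a Western difference of 0.17 (limma adjusted p = 0.195). Several probe sets of a gene did not always lie on the same side of 0. Of 23 members with more than 1 probe set above the dim level, 15 had probe sets of both signs for Western against control, with a median range of 0.148 between the lowest and the highest, and 0 had a range over 0.5.

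Among the genes that work with the proteasome, a ubiquitin-binding stress protein, a shuttle factor and the gene of NRF2 rose on the Western-style diet. Of 29 listed cofactor, ubiquitin and regulator genes 20 were tested, of which 3 rose and 0 fell for Western against control, with a median difference of 0.10 against −0.015 for all genes. Over all genes 5.49% rose and 3.16% fell. Zfand2a, a stress-induced ubiquitin-binding protein of the cap, rose 1.48-fold (limma adjusted p = 0.00354). Ubqln2, which shuttles ubiquitinated proteins to the proteasome, rose 1.3-fold (limma adjusted p = 0.0126) and Nfe2l2, which encodes NRF2, rose 1.38-fold (limma adjusted p = 0.0245). For Western-quercetin against control 1 of 20 rose, Zfand2a at 1.33-fold (limma adjusted p = 0.0324), and for Western-quercetin against Western 0 were called. Of 13 NRF2 target genes tested, 6 rose for Western against control, with a median difference of 0.56, among them Cbr3, a carbonyl reductase, at 4.41-fold and Gstm3, a glutathione transferase, at 4.15-fold. In the Western-quercetin group 5 rose against control. On the values as deposited 10 cofactor genes and 11 NRF2 targets were called higher for Western against control, and with array medians centred 3 and 8. For Western-quercetin against control these counts were 11 and 11 as deposited, and 2 and 5 with medians centred. As deposited, 27.3% of all genes were called for Western against control and 23.9% for Western-quercetin against control. The 44 members outside the inducible set had a median of −0.013 for Western against control beside these values.

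The peptide-loading genes that the immunoproteasome serves also gave no call. Of 13 MHC class I presentation genes tested, 0 rose and 0 fell in any of the 3 comparisons, with a median of 0.059 for Western against control. Over all genes 8.65% were called for Western against control, 5.41% for Western-quercetin against control and 0% for Western-quercetin against Western. A count of 0 in 13 genes is near those shares. The highest-ranked were H2-M3, a non-classical class I molecule, at 0.31 (limma adjusted p = 0.171) and Tap2, of the peptide transporter, at 0.19 (limma adjusted p = 0.273). Of 16 interferon-gamma response genes tested, 1 rose and 2 fell for Western against control, with a median of −0.12. Irf8, a transcription factor of myeloid cells, rose 1.34-fold (limma adjusted p = 0.0387). The interferon-inducible GTPases Igtp and Irgm2 fell by 0.48 and 0.42 on the log2 scale (limma adjusted p = 0.00659 and 0.0102). For Western-quercetin against control 0 rose and 3 fell, with Gbp7, a guanylate-binding protein, beside Igtp and Irgm2. The number of falls depended on the scaling. With array medians centred, 0 genes of the list fell for Western against control and 2 for Western-quercetin against control. On the values as deposited 0 and 1 fell, with medians above 0, and 2 genes of the list were called higher in each of the 2 comparisons. On the deposited values 4 MHC class I genes were called higher in each of these comparisons, where 27.3% and 23.9% of all genes were called. With array medians centred 0 were. Of 13 type I interferon genes, 4 rose for Western against control, 0 were called for Western-quercetin against control and 0 for Western-quercetin against Western. On the values as deposited 5 of them were called higher for Western against control and 3 for Western-quercetin against control, and with array medians centred 5 and 0. Oasl2, one of the 4, had a difference of −0.47 for Western-quercetin against Western (limma unadjusted p = 0.0019, adjusted p = 1).

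Among the markers of immune cells, many of which carry immunoproteasomes, calls were found among those of macrophages. For Western against control 9 of the 16 macrophage markers (Kupffer cells included) rose and 0 fell, and 8 rose for Western-quercetin against control, among them Gpnmb at 5.62-fold and Lgals3 at 3.32-fold in the Western group. Over all genes 5.49% rose for Western against control and 3.43% for Western-quercetin against control. The list did not lie on 1 side: 14 markers were above and 2 below control in the Western group, down to a log2 difference of −0.83, and Timd4, a marker of resident Kupffer cells, was at −0.40 (limma adjusted p = 0.283). The summed signal of the 16 markers ran from 6080 to 16100 in the Western-quercetin and 7430 to 12700 in the Western group, against 4940 to 5960 in the control group, without overlap of either with the control. The summed signal of 7 measured T cell markers ran from 63.1 to 81.4, 70.8 to 104 and 79.4 to 114 in the same order of groups, with 0 of 5 called and Cd3d and Cd4 below the dim level. The 4 NK cell markers tested gave 0 calls for Western against control, with Ncr1 and Gzmb below the dim level. The 4 B cell and 4 dendritic cell markers tested gave 0 calls as well. All 4 B cell markers lay below control in the Western group, with Ighm, the heavy chain of IgM, at −1.02 for Western against control (limma adjusted p = 0.0852) and −1.15 for Western-quercetin against control (limma adjusted p = 0.0677). Their summed signal ran from 112 to 203 in the Western-quercetin and 110 to 270 in the Western group, against 208 to 620 in the control group, so that the Western-quercetin samples did not overlap with the control samples. The part of these cells in the levels of Psmb8, Psmb9, Psmb10 and Psme1 was not tested.

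**Figure D4:**
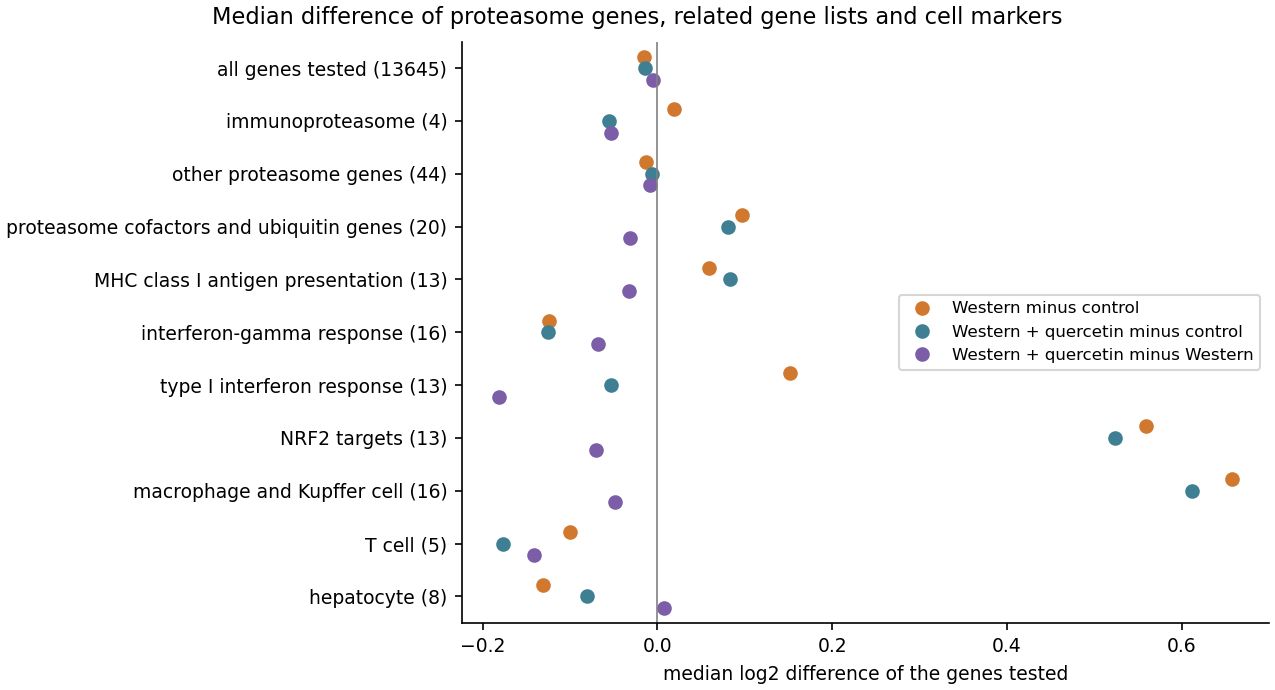
Median log2 difference (x axis) of the proteasome genes, 5 related gene lists and 3 cell marker lists (rows) in the 3 comparisons. For Western against control the medians of the inducible and the other proteasome genes lie at 0.019 and −0.013, while that of the macrophage markers is 0.66 and that of the NRF2 targets 0.56.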

How the data were processed

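The authors deposited linear intensity values, with 1 value for each probe set on each array, for biotin-labelled liver RNA on Affymetrix mouse arrays, per the labels. The software that made them is not given in the sources used here. Trimmed means, taken after 2% of the values were dropped at each end, differed between arrays. The values of 45037 probe sets (64 control probe sets left out) were therefore converted to log2(value + 16) and quantile normalized; the design had named the values as deposited, which are kept as an alternative. Probe sets were named from the platform annotation: 34945 had 1 symbol, 932 several and 9160 none, and only the first were used. Control arrays 4 and 5 were averaged, a choice made after the arrays were compared.

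The 17 samples were fitted together in limma 3.58.1 (R 4.3.3; lmFit with a mean for each diet, then eBayes), with p-values adjusted by Benjamini-Hochberg within each comparison over 13645 genes. Tests are two-sided. Nothing in the labels shows how far mice of a group shared a cage. The fit was checked on simulated data. The number of arrays limits the precision. Alternatives covered the scaling, the pseudocount, the dim filter, the probe set rule, a replicate block, samples numbered 1 to 3 or 4 to 6 alone, the actin ratio and each sample left out.

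Genes were named by rule: the inducible genes and their counterparts, every member called, and the highest and lowest member of each class for Western against control. From each of the 5 pathway lists and 10 cell marker lists, those with the smallest p were taken. Members, lists and rule were chosen with earlier results of these data known. Motifs were counted in promoter windows from RefSeq (GRCm38.p6). The plots were made in Python 3.11.15 with matplotlib 3.10.9.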

Additional observations from a re-analysis of the deposited data

Results flagged for a closer look

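Single samples that stood apart from the rest of their group were looked for among the 48 members and the 3 pairs, in 153 groups of samples, by the gap to the nearest sample as a share of the group's range. Dixon's critical value for the 95% level was passed in 10 groups, and chance passes about 1 group in 20. In the Western-quercetin group, sample 3 was the highest for Psma4, an alpha ring gene, at 10.60 against 10.39 for the nearest sample (gap share 0.735). The same sample was the highest for Psmd1, a scaffold of the cap, at 9.55 against 9.31 for the nearest sample (gap share 0.724), and for Psme3 at 7.98 against 7.72 for the nearest sample (gap share 0.637). In the Western group, sample 3 was the lowest for Psma1 at 9.99 against 10.17 for the nearest sample (gap share 0.766), sample 2 the lowest for Psmb8 at 7.73 against 8.01 for the nearest sample (gap share 0.641) and sample 1 the highest for Psma6 at 10.76 against 10.59 for the nearest sample (gap share 0.676). In the control group, sample 6 was the highest for Psmb3, a beta ring gene, at 9.49 against 9.28 for the nearest sample (gap share 0.845) and the lowest for the ATPase gene Psmc4 at 9.08 against 9.62 for the nearest sample (gap share 0.833). Control sample 1 was the highest for the ATPase gene Psmc3 at 9.51 against 9.35 for the nearest sample (gap share 0.803), and control sample 4-5 the lowest for Psmd4 at 9.35 against 9.46 for the nearest sample (gap share 0.821). None of the 10 concerns Psmd8.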

How the results depend on the processing

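The number of members called for Western against control, 1 as reported, was 15 on the values as deposited, 2 with a pseudocount of 64, with the mean of the probe sets, with control arrays 4 and 5 as separate samples and with the 2 sets of numbers (1 to 3, 4 to 6) as a block, and 0 within numbers 1 to 3, within numbers 4 to 6 and with the actin ratio as a covariate. Leaving out 1 sample gave 1 to 2, the higher count without Western sample 3. For Western-quercetin against control it was 10 as deposited, 2 with a pseudocount of 64, 0 within either set of numbers and 0 with the actin ratio, and 1 to 1 with 1 sample left out. The shares of all genes called there were 23.9% as deposited and 6.37% with a pseudocount of 64. They were 1.64% within numbers 1 to 3, 0.235% within numbers 4 to 6 and 1.14% with the actin ratio. For Western against control the shares of all genes called were 27.3% as deposited, 9.32% with a pseudocount of 64 and 8.32% with the mean of the probe sets. With control arrays 4 and 5 apart the share was 10.4%, and with the 2 sets as a block 11.2%. It was 0.645% (88 genes) within numbers 1 to 3 and 2.17% within numbers 4 to 6. With the actin ratio it was 1.63% (223 genes, where 1180 were called without it). A count of 0 in 48 members is near these low shares. In the 4 settings named above with 2 calls for Western against control the second gene was Psmb5, with limma adjusted p-values of 0.0286, 0.0459, 0.043 and 0.0456. For Western-quercetin against Western, 0 members were called in any of the 32 settings.

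Psmb8 minus Psmb5 for Western-quercetin against control passed the exact test with a pseudocount of 64 (−0.29, adjusted p = 0.039) and with control arrays 4 and 5 apart (−0.35, adjusted p = 0.039), and ran from −0.37 to −0.27 with 1 sample left out (adjusted p 0.0429 to 0.143). It did not pass with the mean of the probe sets (−0.25, adjusted p = 0.37). With control arrays 4 and 5 apart and labels exchanged only within replicate numbers, the difference was −0.35 (exact permutation p = 0.0625, adjusted p = 0.281). The lowest p of that setting, for the same pair in Western against control, was 0.0312 (exact permutation), and its adjusted p was also 0.281. So few exchanges are possible there that the setting could hardly pass, so it does not decide whether the pair differed. The inducible genes minus the rest gave 0.15 within numbers 1 to 3 and −0.28 within numbers 4 to 6, of opposite sign. Same-numbered samples correlated from −0.26 to 0.33 in their deviations, with 15 of 18 correlations over 0.1 and 3 not. The numbers were not taken to pair the mice, for which every one would have had to pass 0.1. Since most correlations passed, missing this strict bar does not show that same-numbered samples share nothing. A fit with the replicate number as a block called 1, 0 and 1 members for Western against control, Western-quercetin against Western and Western-quercetin against control. The other scalings of the gene lists and the fits without Psmc3ip and Psme3ip1 were chosen after seeing the data, and leaving out these 2 genes gave the same counts. The causes of these changes were not tested. Each set of numbers held fewer samples, and the median gene was shifted on the deposited values.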

Other observations

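Markers of the other liver cells give the setting of these levels. Of 6 stellate cell markers 3 rose for Western against control, with a median difference of 0.54, among them Col1a1, a fibrillar collagen, at 3.45-fold (limma adjusted p = 0.000764). Over all genes 5.49% rose and 3.16% fell in that comparison. Of 6 endothelial markers 1 rose, with a median of 0.16. Of 8 hepatocyte markers 0 rose and 2 fell, with a median of −0.13, and their summed signal ran from 47100 to 52000 in the Western-quercetin and 47000 to 49600 in the Western group, against 51100 to 53900 in the control group. The 4 neutrophil and 4 cholangiocyte markers tested gave 0 calls, with medians of 0.26 and 0.27. On the values as deposited, where 27.3% of all genes were called, the calls higher for Western against control were 5 stellate, 4 endothelial, 2 neutrophil and 1 cholangiocyte markers. On that scale 1 hepatocyte marker was lower. With array medians centred they were 4 stellate, 1 endothelial, 0 neutrophil and 0 cholangiocyte markers, and 2 hepatocyte markers were lower. The share of all genes called with medians centred is not given here, for these or the other lists. For Western-quercetin against Western 0 markers of any of the 10 lists were called, where 0 of all 13645 genes were.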
